A study of Mus musculus with 6 samples.

Results

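The 10 genes described here present peptides to T cells, 6 through MHC class II (H2-DMa, H2-DMb1, H2-DMb2, H2-Ab1, Cd74 and Ciita) and 4 through MHC class I (H2-K1, H2-D1, B2m and Tap1). They are 10 of the 25006 genes counted in each library. The set was chosen by name and partly on measured values, since H2-DMa was known to be among the genes with the largest fall in this same comparison, so the values of the 10 genes are a description and carry no p. RNA was sequenced from 3 libraries of MOSE-PAX8 and 3 of MOSE-NEO, both lines of mouse ovarian surface epithelial cells, the layer that covers the ovary. MOSE-PAX8 overexpresses the paired-box transcription factor PAX8, and MOSE-NEO is the line it was set against. Both are stable lines kept under the selection agent G418, so the controls carry the selection too. The labels name 1 line per group and do not say that libraries came from separate cultures, so a p reflects variation among these libraries only, part or all of which may be technical.

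Library totals were 30621528 to 36367825 counts in MOSE-PAX8 and 23623762 to 32057173 in MOSE-NEO. Pax8 had 2570, 2973 and 3544 counts in the MOSE-PAX8 libraries, against 0, 1 and 1 in the MOSE-NEO libraries. One library of each line, MOSE-PAX8 2 and MOSE-NEO 1, held more of its counts in lincRNA genes (0.33% and 0.317%) than the other 4 libraries (0.146% to 0.195%). Of 12313 genes that passed the filter on low counts, edgeR's quasi-likelihood test called 33.9% at a Benjamini-Hochberg adjusted p below 0.05, 17.9% higher and 16.1% lower in MOSE-PAX8. Without MOSE-PAX8 3 the genes called lower numbered 1314, against 1979. The libraries of the lines did not overlap for 47.6% of the tested genes. Of the ovarian surface markers, Wt1 had 721 ± 29.6 CPM (counts relative to library size, with edgeR's TMM factors) in MOSE-PAX8 and 1175 ± 52.2 CPM in MOSE-NEO, and Upk3b 2655 ± 264 CPM in MOSE-PAX8 and 4317 ± 327 CPM in MOSE-NEO (SD, n = 3 each), while Krt8 was at 0.317 ± 0.0298 CPM in MOSE-PAX8 and 0.788 ± 0.254 CPM in MOSE-NEO. Wt1, Upk3b and Krt8 are among 6 called lower of 11 tested ovarian surface genes. Cdh2 was called higher, and Krt18, Krt19, Msln and Gata4 were not called. Krt18 was at 584 ± 104 CPM in MOSE-PAX8 and 661 ± 39.5 CPM in MOSE-NEO. Gata4 was at 114 ± 6.15 CPM in MOSE-PAX8 and 93 ± 12.4 CPM in MOSE-NEO.

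MHC class II molecules are made mainly by professional antigen-presenting cells and are loaded in endosomes. The invariant chain, encoded by Cd74, occupies the groove of a new class II molecule until H2-DM, a dimer of an alpha chain (H2-DMa) and a beta chain (H2-DMb1 or H2-DMb2), exchanges its remnant for antigen peptide, and the coactivator CIITA switches these genes on together. MHC class I molecules are made by nearly all nucleated cells, from a heavy chain such as H2-K1 or H2-D1 and the light chain B2m, with peptides carried into the endoplasmic reticulum by the transporter TAP.

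The near copies among these genes limit what a count can say, and the coding sequences of the beta chain genes show how far. The coding sequences of H2-DMb1 and H2-DMb2 have 783 bases each and are 95.9% identical, with 32 mismatches. The stretch in which they differ most is shown to let the reader see where a read can be told apart, coding bases 206 to 295 of the GENCODE M21 transcripts, with the 19 differing bases in capitals.
H2-DMb1: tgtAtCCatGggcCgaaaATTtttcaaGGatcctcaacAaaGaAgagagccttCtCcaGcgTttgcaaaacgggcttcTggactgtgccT
H2-DMb2: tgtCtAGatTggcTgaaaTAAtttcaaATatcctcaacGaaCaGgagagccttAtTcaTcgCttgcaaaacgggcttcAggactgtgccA
The longest stretch they share without a difference, coding bases 391 to 611, is 221 bases long, and a short read from it cannot be assigned to either gene.
H2-DMb1 and H2-DMb2: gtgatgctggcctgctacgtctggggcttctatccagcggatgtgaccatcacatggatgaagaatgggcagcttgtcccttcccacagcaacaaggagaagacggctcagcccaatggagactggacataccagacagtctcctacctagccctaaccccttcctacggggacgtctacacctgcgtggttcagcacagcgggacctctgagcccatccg

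Of all 50-base stretches in the transcripts of H2-DMb1, 22.7% also occur in another gene, H2-DMb2. For H2-DMb2 the share is 25.9%, for H2-D1 12.8%, for H2-K1 9.63%, for Tap1 3.33%, for Ciita 1.46%, and for H2-Ab1, Cd74 and B2m it is 0. H2-DMa has no near copy, as its coding sequence is 48.6% identical to that of H2-DMb1 and 50.9% to that of H2-Aa. Its share of 8.43% comes from 360 exon bases that overlap Brd2, a chromatin reader gene on the opposite strand. Exon overlap on the opposite strand also makes up the share of Ciita (329 bases with Dexi) and most of that of Tap1 (212 bases with Psmb9). The strand setting of the counting is not given in the sources used here, so reads of these overlaps cannot be placed.

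Genes of both classes often carry a Y box, the core motif of the factor NF-Y, in their proximal promoters, beside an X box bound by the RFX complex. RefSeq promoter windows on GRCm38.p6, 250 bases before to 50 after a start, were matched for 7 of the 10 genes, and H2-Ab1, Cd74 and Ciita were not matched. The motif ATTGG was searched on both strands and is in 37.4% of all 32851 promoter windows. It stands before the start in H2-DMb1, H2-DMb2, H2-D1, H2-K1 and Tap1, among others, and 30-base windows around the match are shown for the first 4 to place them side by side, 5′ to 3′ on the strand of the gene, with the motif in capitals.
H2-DMb1 (chr17:34153118-34153147, plus strand, 61 bases before the start): attcactcagtgATTGGtctgacctgccta
H2-DMb2 (chr17:34145147-34145176, plus strand, 90 bases before the start): agtcacttagtgATTGGactgacttaacta
H2-D1 (chr17:35263006-35263035, plus strand, 76 bases before the start): ggtctcactatcATTGGgtggcgagattcc
H2-K1 (chr17:34000346-34000375, minus strand, 30 bases before 1 of its starts): gctcttacccccATTGGgtggcgcgatcac
The letters are not in the window of the first H2-DMa start, and 1 match lies 198 bases before its second start.
H2-DMa, second start (chr17:34125308-34125337, plus strand): ttctaggtctggATTGGgaccaaagaattg
The window of the first H2-DMa start overlaps a promoter window of Brd2, and the 187 bases of it that lie in no annotated exon are shown because H2-DMa has the largest difference of the 10 genes.
H2-DMa, first start (chr17:34122635-34122821, plus strand, no capitals as no motif matched): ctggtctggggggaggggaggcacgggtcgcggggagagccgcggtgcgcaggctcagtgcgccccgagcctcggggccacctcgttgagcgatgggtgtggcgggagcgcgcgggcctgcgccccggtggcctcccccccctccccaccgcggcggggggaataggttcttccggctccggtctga
The paired-domain core GTCACGC, also searched on both strands and in 2.09% of all windows, matched in none of the 7 genes. A match is a string of letters and says nothing on binding in these cells.

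The H2-DM genes were the class II genes that passed the filter on low counts, and all 3 were lower in MOSE-PAX8. H2-DMa (ENSMUSG00000037649, mm10 chromosome 17, 34119541 to 34139101) encodes the alpha chain. Its counts were 21, 26 and 26 in the MOSE-PAX8 libraries, against 526, 399 and 475 in the MOSE-NEO libraries. All MOSE-PAX8 libraries lay far below all MOSE-NEO libraries. The means were 0.731 ± 0.136 CPM in MOSE-PAX8 and 16.6 ± 0.793 CPM in MOSE-NEO (SD, n = 3 each), a log2 fold change of -4.51 ± 0.16 (SE), or 22.7-fold lower. Counted from the lowest log2 fold change of all tested genes, H2-DMa had rank 17. In bulk RNA, fewer cells that express a gene and less RNA per cell cannot be told apart.

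H2-DMb1 (ENSMUSG00000079547, 34153072 to 34160230) encodes 1 of the beta chains. It had 60, 37 and 24 counts in the MOSE-PAX8 libraries, against 179, 153 and 191 in the MOSE-NEO libraries. The MOSE-PAX8 libraries again lay below the others, and they varied more among themselves than the H2-DMa values did. The means were 1.18 ± 0.451 CPM in MOSE-PAX8 and 6.23 ± 0.492 CPM in MOSE-NEO (SD, n = 3 each), with a log2 fold change of -2.38 ± 0.27 (SE), or 5.22-fold lower. H2-DMb2 (ENSMUSG00000037548, 34143307 to 34151555), the second beta chain gene, had 30, 31 and 26 counts in the MOSE-PAX8 libraries, against 119, 83 and 145 in the MOSE-NEO libraries. Its means were 0.865 ± 0.0948 CPM in MOSE-PAX8 and 4.07 ± 0.652 CPM in MOSE-NEO, a log2 fold change of -2.23 ± 0.22 (SE), or 4.70-fold lower. The groups did not overlap. With the counts of both beta chain genes summed, to set aside how reads were split between them, the log2 fold change was -2.33.

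Levels of the chains were set against each other per kilobase of exon, with the exons of all annotated transcripts of a gene joined. The lengths were 3448 bases for H2-DMa, of which 360 overlap Brd2, 1681 for H2-DMb1 and 1747 for H2-DMb2. Levels compared between genes depend on these lengths, as the transcripts in use in these cells are not known. H2-DMa was at 0.212 CPM per kb in MOSE-PAX8 and 4.82 in MOSE-NEO, H2-DMb1 at 0.703 in MOSE-PAX8 and 3.70 in MOSE-NEO, and H2-DMb2 at 0.495 in MOSE-PAX8 and 2.33 in MOSE-NEO. The level of H2-DMa over the summed level of the beta chain genes was 0.115, 0.19 and 0.259 in the MOSE-PAX8 libraries, against 0.874, 0.835 and 0.701 in the MOSE-NEO libraries. The ratio was thus lower in every MOSE-PAX8 library, as the alpha chain gene had the larger difference. H2-DMb1 held 56.4 ± 9.48% of the beta chain counts in MOSE-PAX8 and 60.6 ± 4.02% in MOSE-NEO (SD, n = 3 each), which is within the spread of the MOSE-PAX8 libraries.

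The other class II genes were at or near 0 in both lines, and none passed the filter. H2-Ab1 (chromosome 17, 34257689 to 34269419) encodes the beta chain of the class II molecule I-A. It was counted 0, 1 and 0 times in the MOSE-PAX8 libraries, against 0, 0 and 1 in the MOSE-NEO libraries. Cd74 (chromosome 18), the invariant chain, had 4, 3 and 2 counts in the MOSE-PAX8 libraries and 2, 2 and 0 in the MOSE-NEO libraries, where 3 counts are 0.082 to 0.13 CPM. The ratio of its sums, 9 in MOSE-PAX8 and 4 in MOSE-NEO, was 1.89 after scaling to library size with the TMM factors, with an exact counting interval at 95% of 0.527 to 8.39, so no difference was detectable at this depth. For the coactivator gene Ciita (chromosome 16, 10480059 to 10528418) there were 6, 12 and 2 counts in the MOSE-PAX8 libraries and 8, 7 and 3 in the MOSE-NEO libraries. The sums were 20 in MOSE-PAX8 and 18 in MOSE-NEO, a ratio of 0.932 after the same scaling to library size, with an interval of 0.468 to 1.87 that covers counting error only. Reads of the 329 exon bases that overlap Dexi cannot be placed, so some of these few counts may be of Dexi. The H2-DM genes held 85.5% to 95% of the counts of the 6 class II genes in MOSE-PAX8 and 98.6% to 99.5% in MOSE-NEO.

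All 4 class I genes were well counted, and their differences were small beside those of H2-DM. The heavy chain gene H2-K1 (ENSMUSG00000061232, chromosome 17, 33996017 to 34000347) was counted at 640, 553 and 596 in the MOSE-PAX8 libraries, against 407, 344 and 521 in the MOSE-NEO libraries. Its means were 17.8 ± 0.54 CPM in MOSE-PAX8 and 15.1 ± 2.19 CPM in MOSE-NEO, with a log2 fold change of 0.24 ± 0.12 (SE) that did not pass the test. The MOSE-PAX8 libraries all lay above the MOSE-NEO libraries in CPM, by little. Without MOSE-NEO 3 the log2 fold change was 0.35 and passed the test. With all H2 class I genes summed to a single count the value was -0.22. That sum also holds H2-D1, which had more counts than H2-K1 in every library, so it is not a value of H2-K1 alone.

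H2-D1 (ENSMUSG00000073411, 35262730 to 35267499), the other heavy chain, had 3248, 2325 and 2891 counts in the MOSE-PAX8 libraries, against 2916, 2169 and 3597 in the MOSE-NEO libraries. The means were 83.7 ± 9.17 CPM in MOSE-PAX8 and 102 ± 15 CPM in MOSE-NEO, a log2 fold change of -0.29 ± 0.12 (SE) that did not pass the test, without overlap of the libraries. For the light chain gene B2m (ENSMUSG00000060802, chromosome 2, 122147686 to 122153083) there were 5299, 3737 and 5169 counts in the MOSE-PAX8 libraries, against 4409, 3363 and 5815 in the MOSE-NEO libraries. The lines overlapped, at 141 ± 21.3 CPM in MOSE-PAX8 and 160 ± 29 CPM in MOSE-NEO (SD, n = 3 each), with a log2 fold change of -0.18 ± 0.15 (SE) that did not pass the test. Per kilobase, B2m was the highest of the 10 genes, at 163 CPM per kb in MOSE-PAX8 and 186 in MOSE-NEO.

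Tap1 (ENSMUSG00000037321, chromosome 17, 34187553 to 34197225), a subunit of the peptide transporter, was the class I gene that differed. It had 655, 672 and 641 counts in the MOSE-PAX8 libraries, against 973, 860 and 987 in the MOSE-NEO libraries, with no overlap. The means were 19.6 ± 1.61 CPM in MOSE-PAX8 and 33.7 ± 3.33 CPM in MOSE-NEO, a log2 fold change of -0.78 ± 0.10 (SE), or 1.72-fold lower.

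**Figure D1:**
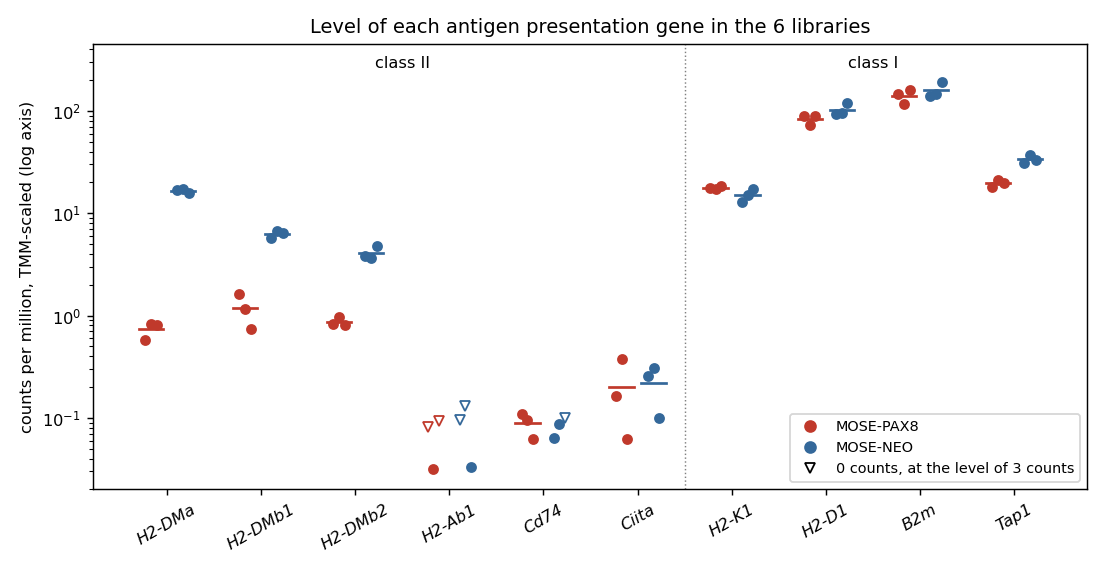
Level in CPM of the 10 genes on a log axis, MOSE-PAX8 (red) left of MOSE-NEO (blue), 1 point per library, with a line at the mean where no library had 0 counts; open triangles mark 0 counts, drawn at the level of 3 counts. The H2-DM genes are separated between the lines, the other class II genes lie under 0.4 CPM and the class I genes lie above 10 CPM in both lines.

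By class, 3 of 3 tested class II genes were called lower with a median log2 fold change of -2.38, and 1 of 4 class I genes with a median of -0.24. Over all 12313 tested genes the median was 0.01 and 16.1% were called lower. All 7 tested genes passed the filter in the libraries of both lines, and 6 of them did not overlap, against 47.6% of all tested genes. The comparison had a part in choosing the genes, so nothing is read from these counts. The log2 ratio of summed class II to summed class I counts was -6.35, -6.05 and -6.86 in the MOSE-PAX8 libraries, against -3.38, -3.39 and -3.74 in the MOSE-NEO libraries. The means were -6.42 ± 0.41 in MOSE-PAX8 and -3.50 ± 0.21 in MOSE-NEO (SD, n = 3 each), a difference of -2.91 that rests on H2-DM, as it held most of the class II counts. Where each gene had equal weight, the genes near 0 included, the difference was -1.19.

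**Figure D2:**
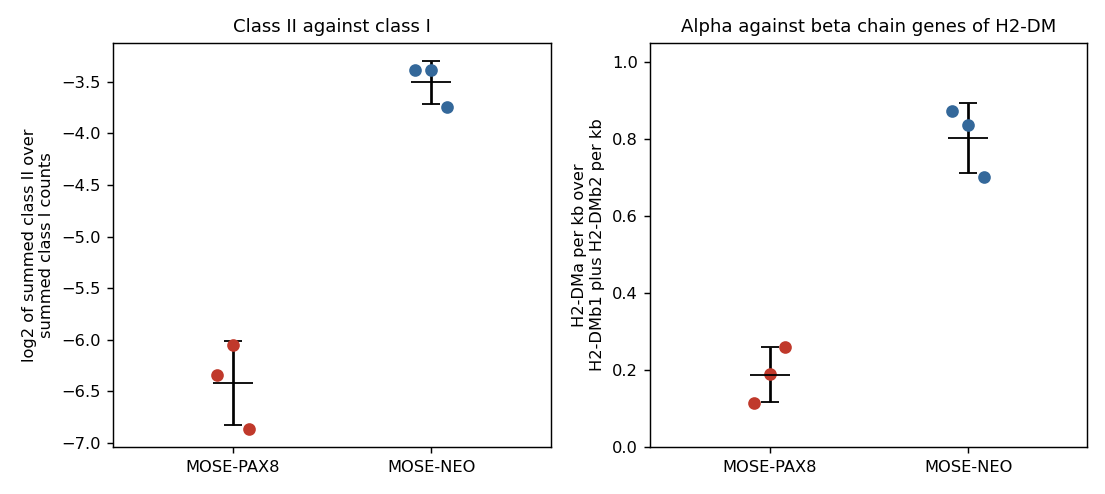
Left, log2 of summed class II over summed class I counts. Right, H2-DMa over the summed H2-DMb genes, each per kb of exon, from 0 up. Points are libraries, with MOSE-PAX8 left of MOSE-NEO, and bars are the mean and SD. The lines do not overlap in either panel.

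The H2-DM genes lie within the MHC region, and the genes around them were called in both directions. Of 33 protein-coding genes within 250 kb of H2-DMa, 27 are not among the 10, and 18 of these were tested. Over all tested genes 17.9% were called higher and 16.1% lower. Of the 18, 3 rose by edgeR's quasi-likelihood test: the chromatin factor gene Daxx (log2 fold change 0.50 ± 0.08 SE, adjusted p = 0.00148), the prefoldin subunit gene Pfdn6 (0.38 ± 0.08, 0.00739) and the nuclear receptor gene Rxrb (0.29 ± 0.08, 0.0276). Another 2 fell, the galactosyltransferase gene B3galt4 (-1.63 ± 0.24, edgeR adjusted p = 0.00126) and Tap2, the other subunit of the peptide transporter (-0.40 ± 0.10, 0.0146). B3galt4 had 20, 23 and 18 counts in MOSE-PAX8, against 56, 46 and 57 in MOSE-NEO. Their median was 0.13, beside 0.01 for all tested genes, and the tested genes within 5 Mb of H2-DMa, a window set after seeing the data, had a median of -0.01.

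Brd2, which overlaps H2-DMa, had 16830, 14781 and 15309 counts in MOSE-PAX8 and 13277, 9108 and 12433 in MOSE-NEO. Its log2 fold change was 0.18 ± 0.07 (edgeR adjusted p = 0.0887), and so it did not pass the test. Psmb9, an immunoproteasome subunit beside Tap1, had 67, 49 and 39 counts in MOSE-PAX8 and 30, 32 and 23 in MOSE-NEO (log2 fold change 0.58 ± 0.30, edgeR adjusted p = 0.178). Psmb8, its partner, had at most 3 counts in any library. The class II genes H2-Oa, H2-Ob and H2-Eb2 had 0 counts in every library, and H2-Aa and H2-Eb1 at most 1. Rxrb missed the threshold without MOSE-NEO 3 or any 1 MOSE-PAX8 library (its adjusted p over the alternatives was 0.0193 to 0.0866), and Tap2 with both lincRNA-rich libraries left out (0.00631 to 0.0501).

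**Figure D3:**
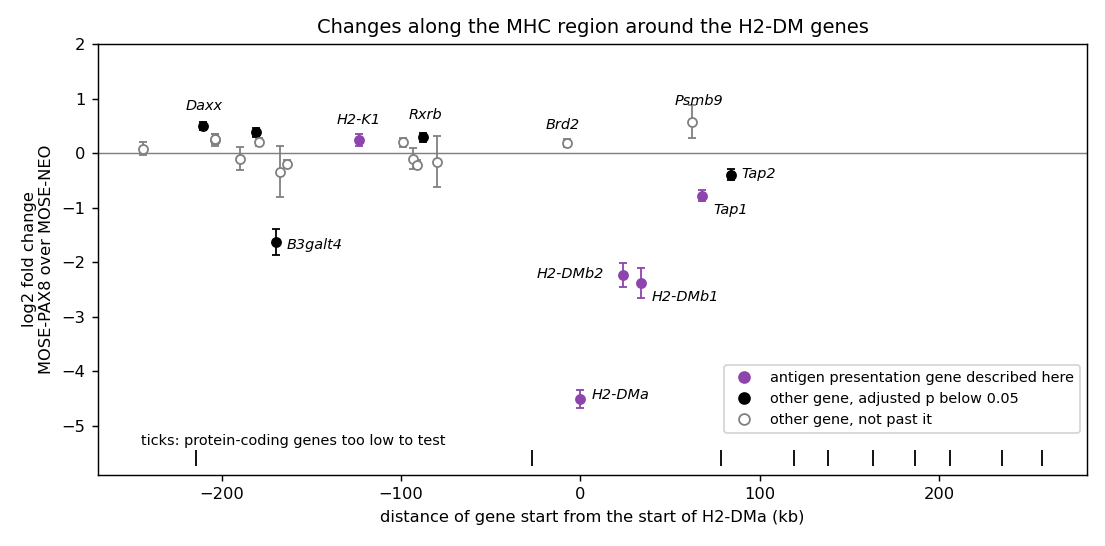
Log2 fold change of MOSE-PAX8 over MOSE-NEO, with SE, against the distance in kb from the start of H2-DMa, for protein-coding genes within 250 kb; ticks at the bottom are genes too low to test. The H2-DM genes stand at -4.51, -2.38 and -2.23 between neighbours such as Brd2 at 0.18 and Psmb9 at 0.58.

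Outside the 10 genes, the class II pathway list had 13 tested genes, of which 1 rose and 2 fell, with a median log2 fold change of 0.10. Beside this list and those that follow, 17.9% of all tested genes were called higher and 16.1% lower. Lgmn, a protease that trims the invariant chain, was at 60.1 ± 6.58 CPM in MOSE-PAX8 and 31 ± 2.92 CPM in MOSE-NEO (SD, n = 3 each), a log2 fold change of 0.96 ± 0.11 (SE; edgeR adjusted p = 0.000286). Rfx5, a subunit of the RFX complex that binds the X box, was at 37.8 ± 6.09 CPM in MOSE-PAX8 and 65.3 ± 9.22 CPM in MOSE-NEO (-0.79 ± 0.14 SE, edgeR adjusted p = 0.00279), beside a median of -0.54 for the genes within 5 Mb of it. The other RFX subunits, Rfxap (-0.25 ± 0.10, edgeR adjusted p = 0.0894) and Rfxank (0.12 ± 0.15, 0.592), did not pass the test. The cathepsin gene Ctsb had -0.36 ± 0.11 (edgeR adjusted p = 0.0346) beside a local median of -0.43, and missed the threshold without any 1 library except MOSE-NEO 1 (0.00639 to 0.105 over the alternatives). Without MOSE-NEO 1 there were 2 called higher and without MOSE-NEO 3 there were 3, and without any 1 library except MOSE-NEO 1 there was 1 called lower. The part of the local medians in these values was not tested.

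The class I list had 20 tested genes other than the 4, with 0 called higher, 3 lower and a median of -0.08. Besides Tap2, the subunits of the proteasome activator PA28 fell, Psme1 by 0.60 and Psme2 by 0.68 on the log2 scale (edgeR adjusted p = 0.00129 and 0.00214). Both lie on chromosome 14, where the tested genes had a median of -0.43. Without MOSE-NEO 1 the list had 5 called lower, and without MOSE-NEO 2 it had 1 called higher. Tapbp, which holds class I molecules at the transporter, was at 262 ± 13.8 CPM in MOSE-PAX8 and 221 ± 30.6 CPM in MOSE-NEO (0.25 ± 0.11 SE, edgeR adjusted p = 0.12). Nlrc5, the class I coactivator, had 16, 32 and 28 counts in MOSE-PAX8 and 24, 9 and 20 in MOSE-NEO (0.31 ± 0.40 SE, edgeR adjusted p = 0.6), which overlap.

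Of the class Ib and class I-like genes 14 were tested, with 0 called higher, 5 lower and a median of -0.25, beside 16.1% of all tested genes called lower. Cd1d1, which presents lipids, had 164, 140 and 124 counts in MOSE-PAX8, against 379, 271 and 438 in MOSE-NEO (-1.59 ± 0.14 SE, edgeR adjusted p = 7.23e-05), with a local median of -0.54. The others called were Mr1, which presents vitamin metabolites (-0.46), the near-copy genes H2-Q7 (-0.98) and H2-T10 (-0.26), whose counts are uncertain, and Procr (-0.61), a receptor of class I-like fold. H2-T10, the last by adjusted p (0.0446 by edgeR), was named after its value was seen, and its values over the alternatives are not given here. Over the alternatives the adjusted p ran up to 0.0527 for Mr1, 0.0867 for H2-Q7 and 0.165 for Procr. Left out in turn, single libraries brought the list to 2 called genes without MOSE-NEO 1 or MOSE-PAX8 3, and to 3 without MOSE-NEO 3, MOSE-PAX8 1 or MOSE-PAX8 2.

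Interferon-gamma is the main inducer of both pathways. The list drawn up for its signalling also holds genes of type I interferon signalling, among them Ifnar1, Ifnar2, Stat2 and Irf9. It had 17 tested genes, 2 called higher and 5 lower, with a median of -0.03, so these counts are not of interferon-gamma signalling alone. The kinase gene Jak1 was at 153 ± 11 CPM in MOSE-PAX8 and 225 ± 9.74 CPM in MOSE-NEO (SD, n = 3 each; -0.56 ± 0.08 SE, edgeR adjusted p = 0.0011), while Jak2 had -0.06 ± 0.07 (0.535) and Irf1 0.16 ± 0.11 (0.299). The receptor genes were called in opposite directions, Ifngr1 at -0.42 ± 0.11 (edgeR adjusted p = 0.0166) and Ifngr2 at 0.38 ± 0.11 (0.0312). The factor genes Irf9 (-0.67) and Irf2 (-0.27) and the feedback inhibitor gene Socs1 (1.27) were also called, Irf2 being named after its value was seen. Irf9 lies on chromosome 14 with a local median of -0.41, the part of which was not tested. Over the alternatives the adjusted p ran up to 0.0564 for Ifngr1, 0.128 for Ifngr2, 0.0614 for Irf9 and 0.121 for Socs1. Irf2 was near the threshold, at an edgeR adjusted p of 0.0417, and its values over the alternatives are not given here. Without MOSE-PAX8 3 the list had 0 higher and 2 lower, and without MOSE-NEO 1, MOSE-NEO 2 or MOSE-PAX8 1 it also had 0 higher. Without MOSE-NEO 3 it had 1 higher, and without any 1 MOSE-NEO library 3 lower.

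Most tested genes of the constitutive proteasome and lysosome lists, which share parts with antigen presentation, were not called, and 33.9% of all tested genes were called. Of 14 constitutive proteasome genes 4 were higher, Psma5 (0.60), Psma3 (0.28), Psma1 (0.32) and Psma6 (0.32), and 1 lower, Psmb4 (-0.46), with a median of 0.02. Local medians were 0.15 for Psma5, 0.17 for Psma3, 0.34 for Psma1, 0.17 for Psma6 and -0.55 for Psmb4. The part of the local medians in these values was not tested. The adjusted p of Psma3, Psma1 and Psma6 ran up to 0.0902, 0.129 and 0.11 over the alternatives. Without MOSE-NEO 1, MOSE-PAX8 1 or MOSE-PAX8 3 a single gene was called higher, without MOSE-NEO 2 there were 2, and without MOSE-NEO 1 there were 2 called lower. Of 18 lysosome genes 0 were higher and 3 lower, among them the lysosome regulator Tfeb (-0.63) and the cathepsin gene Ctsz (-0.50), with a median of -0.06. Without MOSE-PAX8 2 the lysosome list had 1 called higher.

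The co-stimulation and checkpoint list had 14 tested genes, 3 higher and 4 lower, with a median of -0.26. Vtcn1, which encodes the T cell inhibitor B7-H4, had 8, 7 and 6 counts in MOSE-PAX8, against 50, 50 and 75 in MOSE-NEO (-3.30 ± 0.31 SE, edgeR adjusted p = 0.000116), with a local median of -0.52. Lgals9 (-0.63), Cd47 (-0.27) and Ulbp1 (-0.28) were the others lower, and Nectin2 (0.68), Pvr (0.44) and Icosl (1.18) were higher. Nectin2 and Pvr lie in a region of chromosome 7 with a local median of 0.65. The adjusted p of Cd47, Ulbp1 and Icosl ran up to 0.0836, 0.107 and 0.17 over the alternatives. Without MOSE-PAX8 2 or MOSE-PAX8 3 the list had 2 genes lower.

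**Figure D4:**
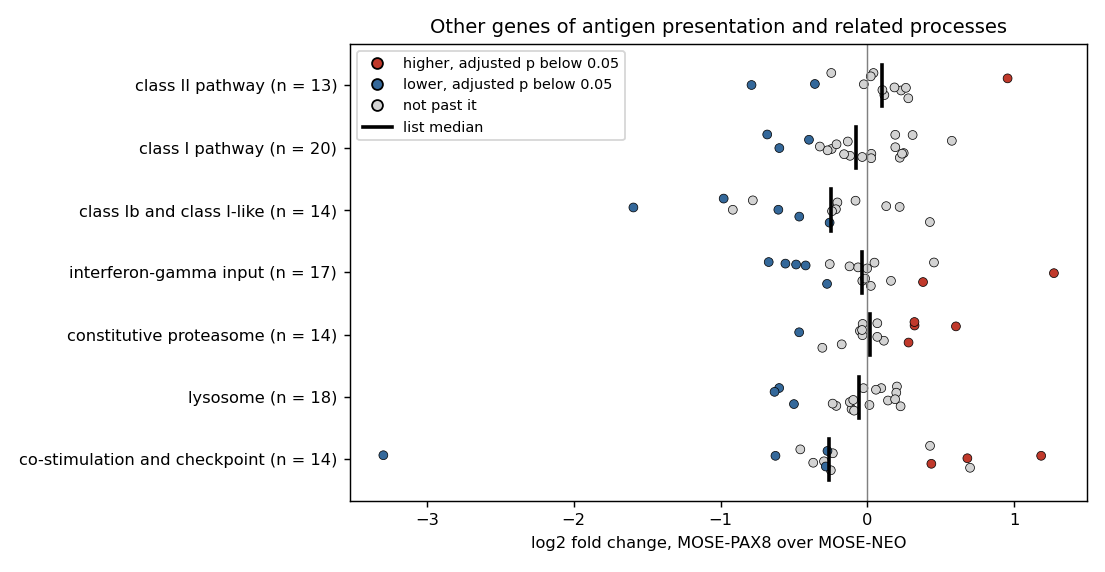
Log2 fold changes of the tested genes of 7 lists, the 10 genes left out, 1 point per gene, with the list median as a bar; red and blue points passed the edgeR test. Medians lie between -0.26 and 0.10, and Vtcn1 at -3.30 is the lowest point.

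Genes with the profile most like that of H2-DMa were ranked by Euclidean distance over the 6 libraries, on log2 CPM with the MOSE-NEO mean removed. The nearest were Sorcs1 (distance 0.624, log2 fold change -4.38), Snph (0.674, -4.29), Fam124a (0.823, -5.18), Hpcal1 (0.911, -4.04) and Zfp423 (1.04, -4.46). They lie on chromosomes 19, 2, 14, 12 and 8, none of them near H2-DMa. Sorcs1 had 94, 72 and 66 counts in MOSE-PAX8, against 1652, 1163 and 1226 in MOSE-NEO. Fam124a had 7, 7 and 6 counts in MOSE-PAX8, against 229, 154 and 240 in MOSE-NEO. Zfp423 had 10, 4 and 8 in MOSE-PAX8, against 137, 111 and 165 in MOSE-NEO. Fam124a and Zfp423 passed the filter through the MOSE-NEO libraries alone, so their fold changes rest on few counts in MOSE-PAX8.

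Markers of professional antigen-presenting cells were looked at because such cells carry class II. Of 22 markers 5 were tested, 6 had 0 counts in every library (among them Adgre1, Tyrobp, Laptm5, Ms4a1 and Spi1), and the 17 not tested had at most 9 counts in any library. Their summed level was 48.3 to 52 CPM in the MOSE-PAX8 libraries and 50 to 57.6 CPM in the MOSE-NEO libraries. Most of it was Zbtb46, named after its values were seen, at 39.3 ± 2.37 CPM in MOSE-PAX8 and 39.9 ± 0.535 CPM in MOSE-NEO (SD, n = 3 each). The other 21 summed to 10.06 to 10.97 CPM in MOSE-PAX8 and 9.52 to 17.7 CPM in MOSE-NEO. The pan-leukocyte marker Ptprc had 60, 49 and 87 counts in MOSE-PAX8, against 0, 0 and 1 in MOSE-NEO, the opposite direction to H2-DM, and Csf1r had 192, 115 and 121 in MOSE-PAX8, against 423, 164 and 334 in MOSE-NEO. Of 11 T and NK cell markers Lck had 59, 40 and 48 counts in MOSE-PAX8 and 1, 0 and 2 in MOSE-NEO, and the other 10 had at most 2 in any library. None of 8 endothelial markers was tested, and of 3 tested stromal markers 0 were called, Col1a1 being at 2005 ± 287 CPM in MOSE-PAX8 and 2545 ± 352 CPM in MOSE-NEO and Dcn at 1419 ± 250 CPM in MOSE-PAX8 and 1572 ± 157 CPM in MOSE-NEO (SD, n = 3 each). Col1a1 passed the test, lower in MOSE-PAX8, with DESeq2, with the replicate block, without MOSE-PAX8 2 (log2 fold change -0.47, adjusted p = 0.0252) and without both lincRNA-rich libraries (0.0202 to 0.264 over the alternatives). Of 3 tested granulosa and theca markers, Foxl2 was called higher and Inha and Star lower, and Star missed the threshold without any 1 library except MOSE-NEO 1 (adjusted p of 0.00374 to 0.0896 over the alternatives). Of 11 tested ovarian surface genes 1 was called higher (Cdh2) and 6 lower, with a median of -0.70, beside 17.9% higher and 16.1% lower over all tested genes. Among the lower were Podxl (-1.19), Krt7 (-0.88), Wt1 (-0.70) and Aldh1a2, which had 0, 0 and 1 counts in MOSE-PAX8, against 1149, 1220 and 1097 in MOSE-NEO. The part of these markers in the H2-DM values was not tested.

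Across tools, scalings, filters and omitted libraries, the H2-DM and Tap1 differences kept their direction in every alternative run. These genes were described with this comparison known, so this shows only how far the values depend on the settings. The log2 fold change ran from -4.60 to -4.35 for H2-DMa, from -2.71 to -2.14 for H2-DMb1, from -2.39 to -2.09 for H2-DMb2 and from -0.90 to -0.71 for Tap1. H2-D1 ran from -0.36 to -0.16 and B2m from -0.28 to -0.02.

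**Figure D5:**
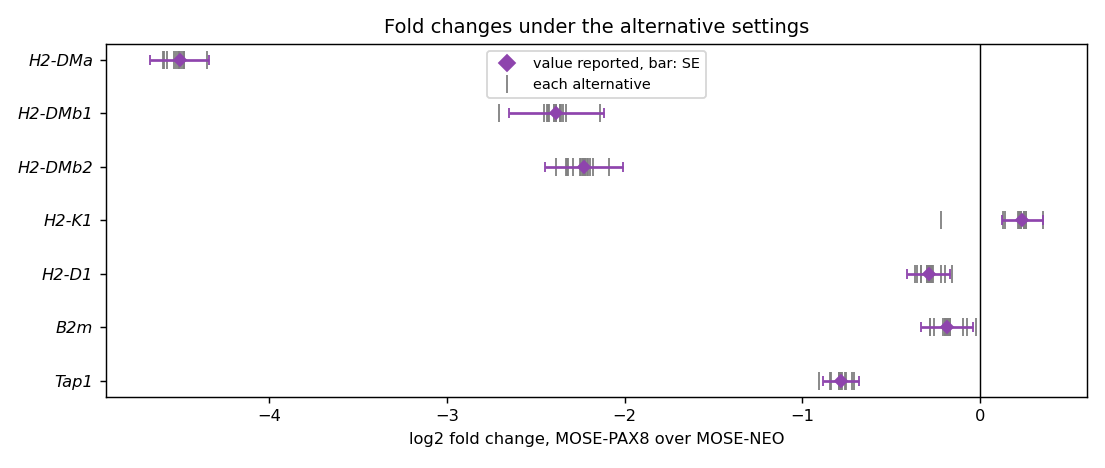
Log2 fold change of MOSE-PAX8 over MOSE-NEO for the 7 tested genes, as reported (diamond, with SE) and under each alternative (ticks). H2-K1 has ticks up to 0.35. Its tick below 0, at -0.22, is the value of all H2 class I genes summed, also drawn for H2-D1, and not of H2-K1 alone.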

How the data were processed

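The authors deposited raw counts per Ensembl gene, 1 table for each of 6 libraries. Cutadapt 1.13, STAR, HTSeq 0.6.1p1 and DESeq2 were used on mm10, per the submitters' processing notes. Annotation, strand setting and multi-mapped read handling were not given in the sources used here. Groups and replicate numbers came from the sample titles. Symbols, coordinates and exon lengths are from GENCODE M21 (24991 of 25006 identifiers matched), counted from 1.

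MOSE-PAX8 was compared with MOSE-NEO by the quasi-likelihood test of edgeR 4.0.16 (R 4.3.3) on the counts, with TMM factors, filterByExpr (a cutoff of 0.32 CPM) and Benjamini-Hochberg adjustment over 12313 genes, called below 0.05. CPM uses the TMM factors. The fit was also run on simulated counts as a check of the code, which does not show how the test behaves on these data. The outcome is not given here. Members, the gene lists and the rule for named genes were chosen with earlier results of these data known. The rule took the 10 genes, Pax8, up to 4 called genes per direction of each list, regulators named in advance whatever their values, genes within 250 kb of H2-DMa, and the 5 nearest profiles. Same-numbered libraries deviated together in 1 pair only, so numbers were not taken to pair the libraries. Alternatives were DESeq2 1.42.0, limma-voom (limma 3.58.1), RLE and upper-quartile factors, other filters, a replicate block, each library left out, summed near copies and chromosome medians; leaving out both lincRNA-rich libraries, and the 5 Mb local medians, were added after seeing the data. Some genes and sequences that the rule selects are left out of the text.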

Additional observations from a re-analysis of the deposited data

How the results depend on the processing

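Of 109 alternative values of the 7 tested genes, 107 kept direction and side of the threshold. The others were both set under H2-K1, which passed the test without MOSE-NEO 3. The value of -0.22 is of all H2 class I genes summed, H2-D1 included, and not of H2-K1 alone. The class II to class I difference was -1.19 with equal weights. Of 922 values of 66 other named genes, 831 kept both, 72 lost a call, 9 gained one and 10 reversed, all in neighbours of H2-DMa that did not pass the test: over single libraries left out, Col11a2 ran from -0.84 to 0.29, H2-Ke6 from -0.29 to 0.0465, Kifc1 from -0.0235 to 0.17, Rgl2 from -0.30 to 0.0568 and Rps18 from -0.91 to 0.15. Counts of other class II genes called higher were 2, against 1, with DESeq2, with upper-quartile factors and with the replicate block, which moved no other count by over 1.5 times. Same-numbered libraries correlated at -0.47, 0.05 and 0.40 in their deviations from the line means, so the numbers give no pairing. Some differently numbered libraries correlated more strongly, MOSE-PAX8 2 at 0.63 with MOSE-NEO 1 and at -0.64 with MOSE-NEO 3. A factor shared across the lines was not in the main fit and was not tested. Interferon genes called higher were 1 with DESeq2 and with a filter of 1 CPM in 3 libraries. Neighbours called lower were 4 with DESeq2 and 1 without both lincRNA-rich libraries, MOSE-PAX8 2 and MOSE-NEO 1, which also left 2 class Ib genes called lower. A window of 100 kb held 1 called higher and 1 lower, and one of 500 kb 6 higher. With each library left out in turn, genes called lower over all ran from 1314 (without MOSE-PAX8 3) to 1843, called genes among the 10 from 0 to 1 higher, class II genes from 1 to 3 higher and 1 to 2 lower, class I genes from 0 to 1 and 3 to 5, class Ib genes from 2 to 5 lower, interferon genes from 0 to 2 and 2 to 4, proteasome genes from 1 to 4 and 1 to 2, lysosome genes from 0 to 1 higher, and co-stimulation genes from 2 to 3 lower. The causes were not tested. Depth limits H2-Ab1, Cd74 and Ciita, and near copies limit H2-K1, H2-D1 and the H2-DMb genes, where shares of 50-base stretches shrank at 75 and 100 bases (H2-DMb1 15.8% and 11.3%).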
